A study of Mus musculus with 16 samples.

Results

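The genes described here are those of the mouse major histocompatibility complex (MHC) and of antigen presentation: every gene whose symbol begins with H2-, together with B2m, Tap1, Tap2, Tapbp, Psmb8, Psmb9, Psmb10, Cd74, Ciita, Nlrc5 and Ubd. The tables list 55 such genes among 38926 gene names for the bmEC and mpEC libraries and for the Lats2 libraries, and 45 among 21603 gene identifiers for the Yap1/Taz libraries. A mean of at least 1 FPKM (fragments per kilobase of gene, scaled for each library) was reached by 27, 29 and 31 of them in the bmEC and mpEC, Lats2 and Yap1/Taz libraries. Ordered by role, they encode the classical class I molecules and their light chain, the nonclassical class I molecules, the class II molecules with their chaperones, the peptide loading machinery with the immunoproteasome, and a group of 3 with Ciita, Nlrc5 and Ubd. H2-Ke2 and H2-Ke6 carry an H2 symbol only because of where they lie, and encode a prefoldin subunit and a steroid dehydrogenase.

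All libraries were made from ECs sorted from bones of C57BL/6 mice. The 3 mpEC and 3 bmEC libraries came from the metaphysis and the diaphyseal marrow of 3-week-old animals that are labelled as wild type and that, by the methods, carried the Cdh5-mTnG reporter, in which a Cdh5 fragment drives the fluorescent proteins used for sorting. A further 3 control and 3 libraries labelled Yap1/Taz iΔEC came from mice at postnatal day 21, all with Yap1flx/flx and Wwtr1flx/flx alleles, and without or with Cdh5CreERT2. The last 2 control and 2 Lats2 iΔEC libraries came from Lats2flx/flx mice, again Cre-negative or Cre-positive, and the methods give their age as 3 weeks. In both knockout designs recombination by the tamoxifen-inducible Cre is limited to cells that use the Cdh5 promoter, the controls were Cre-negative littermates, and pups received tamoxifen. The methods speak of biological triplicates, but the labels tie no library to an animal, so that the p-values measure the spread between these libraries.

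Class I molecules sit on nearly all nucleated cells and show peptides from the cell's own proteins to cytotoxic T cells. The peptides are cut by the proteasome, carried into the endoplasmic reticulum by the Tap1 and Tap2 transporter and loaded with the help of tapasin, the product of Tapbp, and interferon gamma raises most of these genes together with the immunoproteasome. Class II molecules are a mark of B cells, dendritic cells and macrophages and are assembled on the invariant chain Cd74, and vascular endothelium can carry them as well when it is exposed to interferon gamma. Ubd encodes ubiquitin D (FAT10), a ubiquitin-like protein that is induced by inflammatory cytokines and marks proteins for the proteasome.

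Reads on genes, recovered from the steps of the FPKM values, numbered 11112659 to 14741803 in the mpEC and bmEC libraries, 4885913 to 7161478 in the Yap1/Taz libraries and 4729872 to 7067338 in the Lats2 libraries. In a gene of 2000 bases 1 read is worth 0.0405 to 0.133 FPKM across the 16 libraries. The endothelial genes Pecam1 and Cdh5 were high in every library (57.1 to 369 and 101 to 277 FPKM), and transcripts of leukocytes were present in every library too, Ptprc at 0.795 to 64.4 FPKM. The target genes were checked first. Lats2 had 23.4 and 24.0 FPKM in control and 19.2 and 19.2 FPKM in Lats2 iΔEC, without overlap and without passing the test (log2 difference -0.29, adjusted p = 0.125). Wwtr1 went against the label, with 10.0, 9.88 and 10.3 FPKM in control and 15.3, 19.6 and 19.5 FPKM in the libraries labelled Yap1/Taz iΔEC (log2 difference 0.78, adjusted p = 0.0272). Yap1 had 1.07, 1.62 and 0.995 FPKM in control against 1.43, 1.03 and 0.989 FPKM. Because of Wwtr1 these 3 libraries are called "labelled Yap1/Taz iΔEC" throughout. The floxed exons are not separated from the rest of these genes in the tables.

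The bases just before the RefSeq start sites (GRCm38.p6) are shown for 5 members. Ubd and Tapbp differ in 2 of the comparisons, Tap1 shares its upstream stretch with Psmb9, and B2m and H2-Aa stand for class I and class II. Capitals mark matches, on either strand, to ATTGG (the Y box, an inverted CCAAT), GAAA followed after any 2 bases by GAAA (an interferon-stimulated response element), GGGANNTCC (a kappaB site) and TTCNNNGAA (a gamma-activated site).
Ubd (chr17:37193652-37193891, + strand): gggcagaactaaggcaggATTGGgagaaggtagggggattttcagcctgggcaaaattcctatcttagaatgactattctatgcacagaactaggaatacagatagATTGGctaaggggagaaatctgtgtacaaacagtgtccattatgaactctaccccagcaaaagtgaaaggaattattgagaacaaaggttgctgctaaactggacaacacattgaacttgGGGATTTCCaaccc
Tapbp (chr17:33919278-33919477, + strand): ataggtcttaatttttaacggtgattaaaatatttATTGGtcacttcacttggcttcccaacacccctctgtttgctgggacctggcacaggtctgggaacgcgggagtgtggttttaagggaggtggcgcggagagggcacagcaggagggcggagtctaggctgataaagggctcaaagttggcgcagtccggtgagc
Tap1 (chr17:34187331-34187555, + strand): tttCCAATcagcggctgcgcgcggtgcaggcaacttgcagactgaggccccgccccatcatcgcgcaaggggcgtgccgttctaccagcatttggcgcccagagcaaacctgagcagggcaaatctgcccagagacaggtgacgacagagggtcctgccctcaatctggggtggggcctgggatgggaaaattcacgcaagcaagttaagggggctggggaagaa
B2m (chr2:122147537-122147686, + strand): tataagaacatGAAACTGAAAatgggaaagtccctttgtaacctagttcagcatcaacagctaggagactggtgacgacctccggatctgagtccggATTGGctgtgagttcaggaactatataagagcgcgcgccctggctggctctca
H2-Aa (chr17:34287824-34287973, - strand): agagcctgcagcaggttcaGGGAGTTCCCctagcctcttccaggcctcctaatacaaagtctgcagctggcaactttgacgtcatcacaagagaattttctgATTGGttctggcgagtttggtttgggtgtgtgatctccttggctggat

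Tap1 and Psmb9 face away from each other on chromosome 17, and the 225 bases printed for Tap1 are all that separates the RefSeq start sites of the pair. The capitals near the 5′ end of that stretch are a Y box of Psmb9, 8 to 4 bases before its start. In Ubd the kappaB letters lie 14 to 6 bases and the Y boxes 222 to 218 and 134 to 130 bases before the start. B2m has response element letters 139 to 130 bases and a Y box 53 to 49 bases before it. In H2-Aa kappaB letters that read on both strands in overlapping frames lie between 131 and 122 bases and a Y box 48 to 44 bases before it. Promoter entries of 300 bases (250 before and 50 after the start) were found for 38 of the 55 members, 41 promoters in all. The Y box letters occurred in 35 of them (85.4%) and in 37.4% of all 32851 promoters, the kappaB letters in 12.2% and 4.30%, the response element letters in 7.32% and 3.44%, and the gamma-activated site letters in 9.76% and 8.30%. These motifs were chosen with the expression data known, and a match of letters is a description of the sequence and not a binding site.

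Between the marrow and the metaphysis, Ubd, 2 of 3 classical and 1 of 7 nonclassical class I genes and 4 of 6 loading genes were higher in bmECs, and the class II chains H2-Aa and H2-Ab1 were lower. Of the 27 members tested, 8 rose in bmECs, where 13.0% of all 11422 genes tested did so, and 2 fell, where 10.5% of all genes did. The 8 were Ubd, H2-Q6, H2-K1, Tap2, B2m, Tapbp, Psmb10 and Psmb8. The test was limma on log2(FPKM + 1) with a Benjamini-Hochberg adjusted p under 0.05 over all genes, and 13 of the 27 had an unadjusted p under 0.05. A log2 difference is the difference of the group means on that scale, bmECs minus mpECs, and it understates the fold change of genes with low values. Under a stricter call (adjusted p under 0.01 and a log2 difference over 0.5 in size) 2 members were higher, Ubd and Tapbp, and none lower, where 6.51% and 5.17% of all genes were. Every bmEC library lay above every mpEC library in 9 of the 27, and in 22.1% of all genes. The median log2 difference was 0.18 over these 27 and -0.001 over all genes.

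Ubd, on chromosome 17 from 37193892 to 37196095 (GENCODE M21, GRCm38), had the largest difference. It had 249.6, 369 and 304 FPKM in mpECs and 1335, 1325 and 1245 FPKM in bmECs. Its lowest bmEC library was thus more than 3 times as high as its highest mpEC library, and the means of 308 ± 60.0 and 1301 ± 49.1 FPKM (SD, n = 3 each) differed 4.23-fold, with a log2 difference of 2.09 (SE 0.14, adjusted p = 6.65e-05). In the bmEC libraries it was the second most abundant member per length after B2m. Ubd kept its call under all 15 alternative settings (log2 difference 1.90 to 2.24), and none of its transcript windows of 75 bases occurs in another gene.

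Among the classical class I genes, B2m, the light chain shared by all class I molecules, had 2303, 3199 and 1957 FPKM in mpECs and 4069, 5402 and 3316 FPKM in bmECs, a log2 difference of 0.78 (SE 0.23, adjusted p = 0.0423). The heavy chain gene H2-K1 had 109, 172 and 88.2 FPKM in mpECs and 228, 319 and 193 FPKM in bmECs, a log2 difference of 1.02 (SE 0.26, adjusted p = 0.0252). In both genes every bmEC library was above every mpEC library. H2-D1, the other classical heavy chain, was more abundant per length than H2-K1 in every library and had 560.3, 732 and 544 FPKM in mpECs and 765, 933 and 718 FPKM in bmECs, with overlapping groups and a log2 difference of 0.40 (SE 0.15, adjusted p = 0.0888).

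Of the nonclassical class I genes, 7 of 28 listed were tested and H2-Q6, which encodes a Qa-2 antigen, rose. It had 3.34, 7.26 and 2.27 FPKM in mpECs and 11.3, 18.3 and 7.82 FPKM in bmECs, a log2 difference of 1.39 (SE 0.38, adjusted p = 0.0321). H2-Q7, also a Qa-2 gene, had 2.26, 5.22 and 1.62 FPKM in mpECs and 5.56, 10.2 and 4.16 FPKM in bmECs and did not pass (log2 difference 0.95, adjusted p = 0.105). In H2-Q6 and H2-Q7, 17.9% and 17.0% of the 75-base windows occur in transcripts of other genes, so that reads can be shared between them. The log2 differences were 0.16 (adjusted p = 0.247) for H2-M3, which presents formylated peptides, 0.23 (adjusted p = 0.286) for H2-T23 (Qa-1) and 0.18 (adjusted p = 0.51) for H2-T22, a ligand of gamma delta T-cell receptors. None of these 3 passed, although H2-M3 had 24.1 to 26.6 FPKM in mpECs and 26.8 to 31.0 FPKM in bmECs, without overlap. H2-Q4 stayed under the filter, with 0.278 to 1.04 FPKM in mpECs and 0.425 to 0.843 FPKM in bmECs.

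In the loading machinery 4 of 6 genes rose. Tapbp, on chromosome 17 from 33915899 to 33929292, had 95.4, 119 and 102 FPKM in mpECs and 162, 172 and 180.5 FPKM in bmECs (log2 difference 0.70, SE 0.10, adjusted p = 0.00205). Tap2 had 15.9, 23.1 and 19.3 FPKM in mpECs and 27.9, 37.9 and 41.1 FPKM in bmECs (log2 difference 0.84, SE 0.17, adjusted p = 0.0106). Its partner Tap1 had 6.41, 11.6 and 7.05 FPKM in mpECs and 7.77, 12.1 and 10.2 FPKM in bmECs and did not pass, at 0.26 (SE 0.22, adjusted p = 0.447). The 2 chains of the transporter thus differed in this comparison by their calls, while the difference between their fold changes was not tested, and 18.5% of the exon bases of Tap2 and 24.9% of those of Tapbp overlap genes on the other strand.

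The immunoproteasome subunits Psmb8, Psmb9 and Psmb10 take the places of Psmb5, Psmb6 and Psmb7 in the proteasome. Psmb10 had 82.9, 86.1 and 77.0 FPKM in mpECs and 111, 124 and 105 FPKM in bmECs (log2 difference 0.46, SE 0.09, adjusted p = 0.00813). Psmb8 had 74.6, 76.8 and 66.8 FPKM in mpECs and 98.7, 107 and 81.8 FPKM in bmECs (log2 difference 0.39, SE 0.11, adjusted p = 0.0436). Psmb9 had 11.0 to 14.7 FPKM in mpECs and 13.1 to 19.8 FPKM in bmECs without passing (log2 difference 0.30, adjusted p = 0.23). None of the constitutive counterparts passed, with log2 differences from -0.26 to -0.07. The ratio of Psmb8 to Psmb5 was 0.455, 0.519 and 0.443 in mpEC libraries and 0.715, 0.901 and 0.633 in bmEC libraries, and that of Psmb10 to Psmb7 was 0.568, 0.708 and 0.567 and 0.939, 1.12 and 0.894, with no overlap between the groups in either ratio. That of Psmb9 to Psmb6 was 0.0560, 0.0801 and 0.0567 in mpEC and 0.0721, 0.104 and 0.0776 in bmEC libraries, with overlap.

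Among the 9 class II genes tested, H2-Aa and H2-Ab1, the chains of the I-A molecule, fell in bmECs. H2-Aa had 19.4, 20.9 and 16.3 FPKM in mpECs and 11.5, 15.7 and 10.2 FPKM in bmECs (log2 difference -0.57, SE 0.16, adjusted p = 0.0374). H2-Ab1 had 67.8, 57.9 and 43.5 FPKM in mpECs and 32.2, 43.7 and 33.0 FPKM in bmECs (log2 difference -0.61, SE 0.18, adjusted p = 0.0412), with the highest bmEC library just above the lowest mpEC library. H2-Eb1, the beta chain of I-E, whose alpha chain gene is a pseudogene in C57BL/6 mice (H2-Ea-ps, listed at 0), was at 14.3 to 21.7 FPKM in mpECs and 8.56 to 15.3 FPKM in bmECs and did not pass (log2 difference -0.64, adjusted p = 0.0683). Cd74 was the most abundant class II gene and had 289.9, 221 and 159 FPKM in mpECs and 216, 252 and 199 FPKM in bmECs, a log2 difference of 0.03 (SE 0.20, adjusted p = 0.933). H2-DMa and H2-DMb1, which help to exchange the peptide, had log2 differences of -0.23 (adjusted p = 0.446) and -0.43 (adjusted p = 0.246), and the summed class II FPKM was 428, 342 and 250.1 in mpEC and 289.5, 345 and 273 in bmEC libraries. The regulators of the classes were low. Ciita, the class II transactivator, had 0.262, 0.401 and 0.196 FPKM in mpECs and 0.162, 0.322 and 0.0323 FPKM in bmECs, and Nlrc5, the class I transactivator, had 0.202 to 0.485 FPKM in mpECs and 0.389 to 0.539 FPKM in bmECs.

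Transcripts of leukocytes were spread unevenly over these libraries. None of the 5 pan-leukocyte markers passed, with a median log2 difference of -0.50 and sums of 317, 170.0 and 194 FPKM in mpEC and 181, 132 and 154 FPKM in bmEC libraries. Of 10 B cell genes 1 fell (Ebf1), and none of 8 neutrophil genes passed. Of 11 macrophage and monocyte genes 2 fell (Lyz2 and Cx3cr1) and 1 rose (Mrc1, which sinusoidal endothelium also expresses). Cx3cr1 reached the filter through the mpEC libraries, with means of 1.98 FPKM in mpECs and 0.799 FPKM in bmECs. Of 5 dendritic cell genes 1 rose (Zbtb46) and the other 4 did not pass. The largest differences were in the osteoblast and stromal list, of which 5 were tested. Bglap, the osteocalcin gene, had 322, 185 and 49.2 FPKM in mpECs and 2.95, 2.91 and 0.962 FPKM in bmECs (log2 difference -5.53, adjusted p = 0.00063) and the collagen gene Col1a1 88.5, 55.3 and 23.9 FPKM in mpECs against 0.667, 0.628 and 0.453 FPKM (log2 difference -4.99, adjusted p = 0.000127), whereas Lepr, the leptin receptor gene, was higher in bmECs (log2 difference 1.85, adjusted p = 5.07e-05). Summed over a list, the ranges in mpECs and bmECs were 335 to 666 and 309 to 382 FPKM for B cell genes and 1230.2 to 2127 and 1106 to 1402 FPKM for macrophage genes. The neutrophil genes summed to far more, 11616 to 27761 and 9442 to 13866 FPKM. The 7 erythroid genes, none of which passed, summed to 28287 to 52923 and 42520 to 60421 FPKM. The 7 endothelial markers summed to 778 to 982 and 870 to 886 FPKM, with changes in both directions. Of these, 3 rose in bmECs (Kdr, Tek and Erg) and 3 fell (Emcn, Tie1 and Pecam1), where 13.0% and 10.5% of all genes did. Itgax and Cd3e stayed at or below 0.620 FPKM in all 6 libraries. The part of these cells in the members' values was not tested, and in bulk libraries fewer cells of a type cannot be told apart from less RNA per cell.

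The calls of B2m, H2-K1, H2-Q6 and Psmb8 were lost without each of mpEC replicate 1, mpEC replicate 3, bmEC replicate 1 and bmEC replicate 2, which left 4 higher genes each time, and that of Psmb8 also without mpEC replicate 2. The calls of H2-Aa and H2-Ab1 were lost without replicate 1 or 2 of the mpECs or replicate 1 or 3 of the bmECs. In contrast, Ubd, Tap2, Tapbp and Psmb10 passed at an adjusted p under 0.05 in all 15 alternative fits. Of these, Ubd and Tapbp alone also met the stricter call, which is not among the 15. Median-ratio scaling, which is among the 15, could change little, as its factor was 1.004 in each of these libraries.

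**Figure D1:**
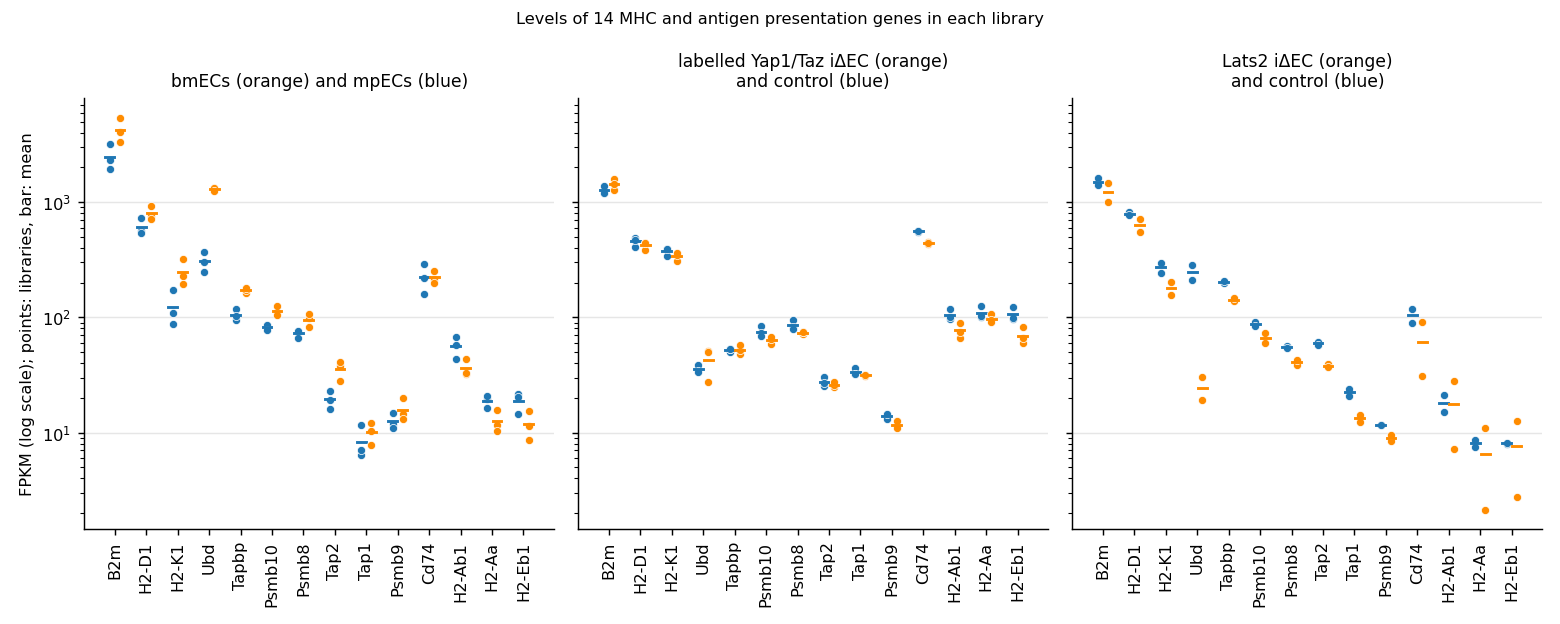
FPKM (log axis) of 14 members in each library of the 3 comparisons, with libraries as points, group means as bars, blue for mpECs or control and orange for bmECs, libraries labelled Yap1/Taz iΔEC or Lats2 iΔEC. Ubd stands apart upwards in bmECs (1245 to 1335 against 249.6 to 369 FPKM) and downwards in Lats2 iΔEC (19.0 and 30.2 against 211 and 282 FPKM), while the class II genes of the 2 Lats2 iΔEC libraries lie far from each other.

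Lats2 encodes a kinase of the Hippo pathway. In the Lats2 iΔEC libraries, in which Lats2 itself did not pass the test, Ubd and 3 loading genes were lower than in control. Of the 29 members tested, 7 fell in Lats2 iΔEC and none rose, where 9.98% of all 12453 genes fell and 11.8% rose by the same test. The 7 were Ubd, the class I genes H2-K2, H2-Q7 and H2-Q5, and Tap1, Tap2 and Tapbp. Another 6 members had an unadjusted p under 0.05, and 18 of the 29 were lower in both Lats2 iΔEC libraries than in both controls, which was the case for 34.2% of all genes. H2-Ke2 alone was higher in both, as were 34.0% of all genes. Among the 18 lower members, H2-Q5, H2-DMb2, H2-Ob and H2-Ke6 reached the filter through the control libraries, with a mean under 1 FPKM in Lats2 iΔEC. H2-Q5 is also among the 7 that were called. The median log2 difference, Lats2 iΔEC relative to control, was -0.44 over the 29 and -0.003 over all genes.

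Ubd again had the largest difference, in the opposite direction to that in bmECs. It had 282 and 211 FPKM in control and 30.2 and 19.0 FPKM in Lats2 iΔEC. The means were 247 ± 50.7 and 24.6 ± 7.91 FPKM (SD, n = 2 each), the control mean being 10.0 times the other, with a log2 difference of -3.29 (SE 0.26, adjusted p = 0.00713). It was the only member that also passed an adjusted p under 0.01 with an absolute log2 difference over 0.5, as 1.21% of all genes did in this direction.

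All 6 loading genes were lower in both Lats2 iΔEC libraries than in both controls, as were 34.2% of all genes. Of these 6, 3 passed, where 9.98% of all genes fell. Tap1, on chromosome 17 from 34187553 to 34197225, had 23.7 and 20.8 FPKM in control and 14.1 and 12.4 FPKM in Lats2 iΔEC (log2 difference -0.71, SE 0.14, adjusted p = 0.0258). Tap2 had 61.6 and 57.8 FPKM in control and 39.0 and 37.0 FPKM in Lats2 iΔEC (log2 difference -0.64, SE 0.11, adjusted p = 0.0214). Tapbp had 199 and 206 FPKM in control and 139 and 147 FPKM in Lats2 iΔEC (log2 difference -0.50, SE 0.12, adjusted p = 0.0367). The gap between the groups was larger than either spread in these 3 genes. They were picked by their call, so that this adds no support to it.

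The immunoproteasome subunits were lower but did not pass. Psmb8 had 56.7 and 54.1 FPKM in control and 38.9 and 42.4 FPKM in Lats2 iΔEC (log2 difference -0.44, adjusted p = 0.0524). Psmb9 had 11.5 and 11.5 FPKM in control against 8.47 and 9.44 FPKM (log2 difference -0.33, adjusted p = 0.127), and Psmb10 had 91.2 and 83.7 FPKM in control against 59.7 and 73.7 FPKM (log2 difference -0.39, adjusted p = 0.116). The constitutive subunits moved the other way and all 3 passed. Psmb5 had 114 and 130.1 FPKM in control and 195 and 249.99 FPKM in Lats2 iΔEC (log2 difference 0.85, SE 0.17, adjusted p = 0.0257), and the log2 differences of Psmb6 and Psmb7 were 0.61 (adjusted p = 0.0478) and 0.57 (adjusted p = 0.0361). Within each library the ratio of Psmb8 to Psmb5 was 0.496 and 0.416 in control and 0.200 and 0.170 in Lats2 iΔEC. The ratio of Psmb9 to Psmb6 was 0.123 and 0.119 against 0.0659 and 0.0574 and that of Psmb10 to Psmb7 was 1.48 and 1.45 against 0.721 and 0.764. All 3 ratios were thus lower in both Lats2 iΔEC libraries, which is a description of 4 libraries with no test of the ratio.

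**Figure D2:**
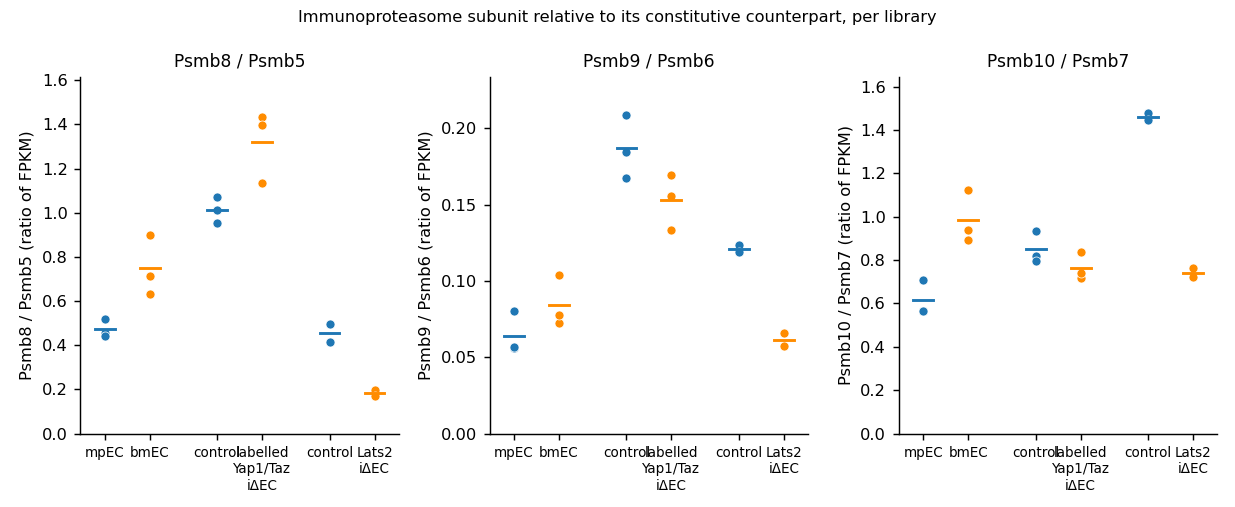
Ratio of FPKM between each immunoproteasome subunit and the constitutive subunit it replaces, with libraries as points and group means as bars (blue for mpEC or control, orange for the other group). The Psmb8 to Psmb5 ratio lies at 0.170 and 0.200 in Lats2 iΔEC against 0.416 and 0.496 in control, and at 0.633 to 0.901 in bmECs against 0.443 to 0.519 in mpECs.

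Class I heavy and light chains were lower on average without passing. H2-K1 had 299 and 244 FPKM in control and 155 and 205 FPKM in Lats2 iΔEC (log2 difference -0.60, SE 0.19, adjusted p = 0.079). H2-D1 had 817 and 770.0 FPKM in control against 548 and 716 FPKM (log2 difference -0.34, adjusted p = 0.224). B2m had 1606 and 1415 FPKM in control against 1000.4 and 1462 FPKM with overlapping groups (log2 difference -0.32, adjusted p = 0.358). In all 3 genes the second Lats2 iΔEC library was the higher of its pair. That library lay within the control range in B2m and below both controls in H2-K1 and H2-D1. Among the nonclassical genes H2-Q7 fell, with 10.8 and 7.33 FPKM in control and 1.86 and 4.33 FPKM in Lats2 iΔEC and a log2 difference of -1.35 (SE 0.35, adjusted p = 0.0493). H2-Q6 had 19.8 and 15.1 FPKM in control against 4.96 and 13.3 FPKM and did not pass (log2 difference -0.99, adjusted p = 0.154). Nor did H2-Q4 (log2 difference -0.68, adjusted p = 0.159), H2-M3 (log2 difference -0.30, adjusted p = 0.196), H2-T23 (log2 difference -0.18, adjusted p = 0.581) and H2-T22 (log2 difference -0.12, adjusted p = 0.582). H2-K2 and H2-Q5, which the annotation calls pseudogenes, fell too. H2-K2 had 8.28 and 9.33 FPKM in control against 0.237 and 2.16 FPKM (log2 difference -2.31, SE 0.45, adjusted p = 0.0255). H2-Q5 had 2.27 and 2.01 FPKM in control against 0.167 and 0.505 FPKM (log2 difference -1.24, SE 0.26, adjusted p = 0.0306), 1 to 19 reads a library, and reached the mean of 1 FPKM through the control libraries alone. Of their 75-base windows 4.99% and 21.2% occur in other genes, among them H2-T22 and H2-Q7.

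None of the 8 class II genes tested passed in Lats2 iΔEC, and the 2 mutant libraries differed widely. H2-Ab1 had 21.1 and 15.1 FPKM in control and 28.2 and 7.24 FPKM in Lats2 iΔEC, H2-Aa 8.69 and 7.53 FPKM in control against 10.9 and 2.14 FPKM and H2-Eb1 8.02 and 8.13 FPKM in control against 12.6 and 2.73 FPKM. The first mutant library was above both controls and the second below both in each of these genes. Their log2 differences were -0.28 (adjusted p = 0.754), -0.57 (adjusted p = 0.529) and -0.35 (adjusted p = 0.696). Cd74 had 118 and 90.0 FPKM in control against 91.5 and 31.2 FPKM (log2 difference -0.93, adjusted p = 0.231). H2-DMa had 3.43 and 3.59 FPKM in control against 4.20 and 1.47 FPKM (log2 difference -0.33, adjusted p = 0.551) and H2-DMb1 0.952 and 1.36 FPKM in control against 1.97 and 0.136 FPKM (log2 difference -0.23, adjusted p = 0.768). Leukocyte markers differed between the same 2 libraries, as did the sex-linked gene Ddx3y, which was found in the second of them only. The part of either in the class II values was not tested. Ptprc, the pan-leukocyte CD45 gene, had 6.39 and 5.57 FPKM in control against 2.80 and 0.795 FPKM, and the macrophage and monocyte genes summed to 722 and 620.1 against 371 and 115 FPKM, again with the first mutant library the higher. Within that list Lyz2 had 488 and 398 FPKM in control against 246 and 52.0 FPKM (log2 difference -1.95, adjusted p = 0.106). The complement genes C1qa, C1qb and C1qc were higher in both mutant libraries without passing, with log2 differences of 1.46 (adjusted p = 0.066), 1.47 (adjusted p = 0.11) and 1.26 (adjusted p = 0.0842).

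All genes of the blood cell lists that passed were lower in Lats2 iΔEC. Of the tested genes of each list, 3 of 5 pan-leukocyte, 7 of 9 B cell, 6 of 8 neutrophil, 1 of 11 macrophage and monocyte (Mrc1), 1 of 4 dendritic cell (Zbtb46), 1 of 2 T and NK cell (Nkg7) and 1 of 7 erythroid genes (Klf1) fell and none rose. The sums over these lists were 98.8 and 83.4 FPKM in control and 49.3 and 23.3 FPKM in Lats2 iΔEC for pan-leukocyte genes. For B cell genes they were 287 and 242 against 72.7 and 51.1 FPKM, with Cd79a at 39.9 and 34.2 FPKM in control against 10.4 and 7.86 FPKM and Itgax at or below 0.149 FPKM. Mrc1, which sinusoidal endothelium also expresses, and Zbtb46 were the only genes called in their lists. Both were higher in bmECs than in mpECs (log2 differences 1.74 and 0.65). The part of blood cells in the members' changes was not tested. Pecam1 rose (log2 difference 0.85, adjusted p = 0.015), and of the endothelial list Kdr and Tek fell.

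The regulators Ciita and Nlrc5 stayed under the mean of 1 FPKM. Nlrc5 had 1.21 and 1.43 FPKM in control and 0.277 and 0.578 FPKM in Lats2 iΔEC, and Ciita had 0.459 and 0.384 FPKM in control and 0.151 and 0.306 FPKM in Lats2 iΔEC. The genes upstream were better covered, and of 18 transcription and interferon signalling genes 4 fell, where 9.98% of all genes did. Irf8 had 28.9 and 30.5 FPKM in control against 9.43 and 11.1 FPKM (log2 difference -1.45, SE 0.13, adjusted p = 0.00808). Jak1, a kinase of the interferon receptors, had 217 and 221 FPKM in control against 90.9 and 72.8 FPKM (log2 difference -1.42, SE 0.15, adjusted p = 0.00912). Irf1, a direct activator of class I and loading genes, had 54.8 and 59.7 FPKM in control against 33.8 and 40.7 FPKM (log2 difference -0.61, SE 0.14, adjusted p = 0.0361). Of 13 genes inducible by interferon gamma 7 fell and none rose, with a median log2 difference of -0.65. The largest falls were those of the chemokine Cxcl10 (15.7 and 27.0 FPKM in control against 4.18 and 1.19 FPKM, log2 difference -2.68, adjusted p = 0.0199) and of 2 GTPases that act against intracellular pathogens. These were Iigp1 (102 and 82.0 FPKM in control against 24.7 and 34.3 FPKM, log2 difference -1.62, adjusted p = 0.0115) and Irgm2 (31.5 and 31.1 FPKM in control against 10.2 and 10.4 FPKM, log2 difference -1.51, adjusted p = 0.007).

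Among the proteases and accessory genes of class II, 4 of 6 fell. The largest falls were those of the lysosomal proteases Lgmn (341 and 337 FPKM in control against 126 and 96.1 FPKM, log2 difference -1.62, adjusted p = 0.00912), Ctsl (1153 and 957 FPKM in control against 307 and 408 FPKM, log2 difference -1.57, adjusted p = 0.0116) and Ctsd (log2 difference -1.06, adjusted p = 0.0115). Erap1, the peptidase that trims class I peptides in the endoplasmic reticulum, was the only 1 of 7 further class I loading genes that fell (36.5 and 33.1 FPKM in control against 22.5 and 21.5 FPKM, log2 difference -0.64, adjusted p = 0.0237). Of 5 class I-like genes outside the MHC, Fcgrt, the neonatal Fc receptor, fell (1123 and 1028 FPKM in control against 404 and 306 FPKM, log2 difference -1.61, adjusted p = 0.0102), as did the iron regulator Hfe (log2 difference -0.70, adjusted p = 0.0279). Procr, the protein C receptor, rose (24.8 and 19.9 FPKM in control against 49.3 and 61.3 FPKM, log2 difference 1.27, adjusted p = 0.0131). The costimulatory gene Cd40 rose as well (7.20 and 8.24 FPKM in control against 17.2 and 19.3 FPKM, log2 difference 1.14, adjusted p = 0.0113). Over all 55 further pathway genes tested, 18 fell and 5 rose, where 9.98% and 11.8% of all genes did.

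With 2 libraries a group these calls depend on single libraries. Without either control library no gene of the whole table passed, and without the second Lats2 iΔEC library only H2-K2, H2-Q6 and Ubd fell among the members, whereas without the first, H2-Q7 and Tapbp lost their call, Cd74, H2-Aa and H2-Eb1 fell and H2-Ke2 rose.

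**Figure D3:**
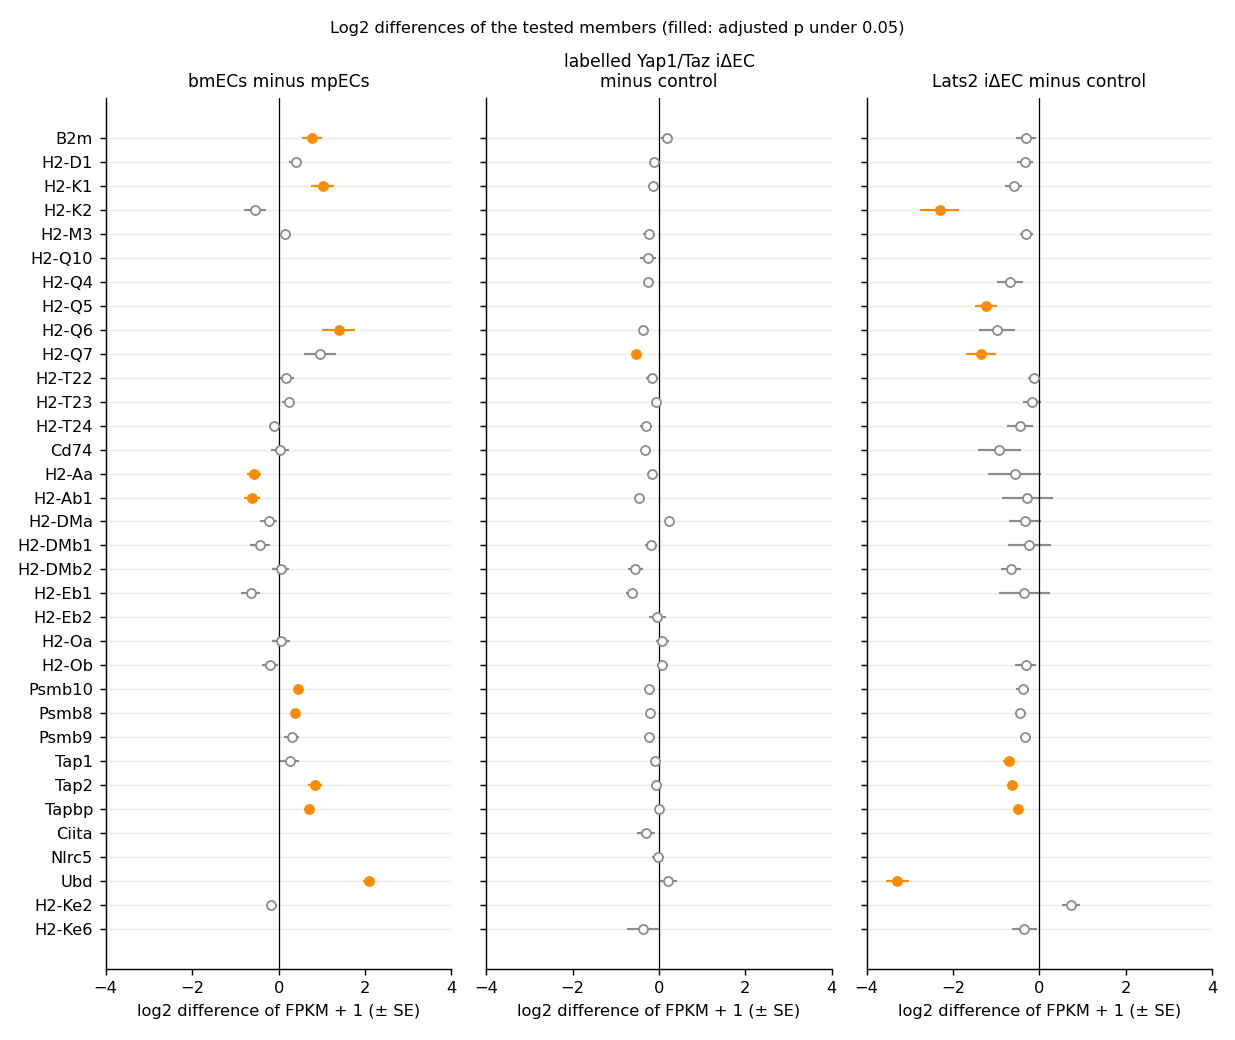
Log2 difference on the log2(FPKM + 1) scale with its SE for each member with a mean of at least 1 FPKM in bmECs relative to mpECs, libraries labelled Yap1/Taz iΔEC relative to control and Lats2 iΔEC relative to control, with filled orange points for an adjusted p under 0.05. Ubd lies at 2.09 and -3.29 in the first and last comparison, and the middle comparison has 1 filled point, H2-Q7 at -0.54.

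Ubd, Tap2 and Tapbp were called in both comparisons, higher in bmECs and lower in Lats2 iΔEC. They made up 3 of 8 genes (37.5%) higher in bmECs and 3 of 7 genes (42.9%) lower in Lats2 iΔEC, and 26 members were tested in both, which share no library. Over all genes, 495 were higher in bmECs and lower in Lats2 iΔEC, which is 33.4% of the 1481 and 39.8% of the 1243, so that the shares of the members lay near the background. Their log2 differences, side by side, were 2.09 and -3.29 for Ubd, 0.84 and -0.64 for Tap2 and 0.70 and -0.50 for Tapbp. Of the further pathway genes, bmECs had higher Jak1 (132, 155 and 125 FPKM in mpECs against 402, 397 and 349 FPKM, log2 difference 1.47, adjusted p = 8.05e-05). Among 5 of 17 signalling genes that rose were also Irf8 (13.0, 14.6 and 12.2 FPKM in mpECs against 35.2, 35.4 and 35.6 FPKM, log2 difference 1.35, adjusted p = 6.28e-05) and Ifngr1 (log2 difference 0.60, adjusted p = 0.0121).

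In bmECs 3 of 13 genes inducible by interferon gamma rose, where 13.0% of all genes did. These were Cxcl9 (2.90, 10.3 and 6.91 FPKM in mpECs against 18.4, 53.1 and 24.2 FPKM, log2 difference 2.09, adjusted p = 0.0137), Iigp1 (73.5, 134 and 66.7 FPKM in mpECs against 212, 315 and 183 FPKM, log2 difference 1.40, adjusted p = 0.0102) and Irgm2 (log2 difference 0.92, adjusted p = 0.0241). None of this list fell, and the transcription factor Irf1 did not pass (log2 difference 0.19, adjusted p = 0.519). The class II proteases Ctsl (346, 498 and 419.7 FPKM in mpECs against 2276, 2297 and 2156 FPKM, log2 difference 2.42, adjusted p = 3.23e-05), Lgmn (log2 difference 1.35, adjusted p = 0.000104) and Ctsd (log2 difference 0.80, adjusted p = 0.000832) were the largest of 4 rises among 8 genes. Erap1 (log2 difference 0.62, adjusted p = 0.00438) and the lectin chaperones Canx (log2 difference 0.46, adjusted p = 0.0482) and Calr (log2 difference 0.32, adjusted p = 0.0446) rose among 7 loading genes. So did Fcgrt (839, 910.5 and 804 FPKM in mpECs against 1830.1, 1559 and 1568 FPKM, log2 difference 0.95, adjusted p = 0.000537) and Hfe (log2 difference 0.73, adjusted p = 0.000886) among 5 class I-like genes, and Procr fell (log2 difference -0.48, adjusted p = 0.0441). Cd40 fell (16.7, 16.9 and 19.1 FPKM in mpECs against 2.07, 2.95 and 2.20 FPKM, log2 difference -2.45, adjusted p = 2.48e-05), as the only costimulatory gene of 3 tested to pass. Over all 56 further pathway genes tested, 17 rose and 2 fell, where 13.0% and 10.5% of all genes did.

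In the libraries labelled Yap1/Taz iΔEC 1 member passed the test. Of the 31 tested none rose and 1 fell, where 0.883% and 0.424% of all 11320 genes did. That gene was H2-Q7, with 8.55, 8.69 and 8.11 FPKM in control and 5.32, 5.77 and 5.41 FPKM in the libraries labelled Yap1/Taz iΔEC and a log2 difference, relative to control, of -0.54 (SE 0.11, adjusted p = 0.0443). At an unadjusted p under 0.05 there were 10 members, and under the stricter call none, as 0.00883% of all genes fell by it. In 11 of the 31 the groups did not overlap and control was higher, as for 11.3% of all genes. In H2-DMa alone they did not overlap and control was lower, as for 12.3% of all genes (52.3, 49.7 and 55.5 FPKM in control against 57.2, 65.7 and 62.5 FPKM, log2 difference 0.23, adjusted p = 0.245).

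The class II genes H2-Eb1, H2-Ab1, Cd74 and H2-DMb2 were among these 11. H2-Eb1 had 97.3, 99.6 and 124 FPKM in control and 82.0, 59.4 and 66.0 FPKM in the libraries labelled Yap1/Taz iΔEC, a log2 difference of -0.63 (SE 0.14, adjusted p = 0.0642). H2-Ab1 had 97.0, 101 and 119 FPKM in control against 89.2, 66.1 and 75.3 FPKM (log2 difference -0.46, SE 0.13, adjusted p = 0.107). Cd74 had 564, 549 and 558 FPKM in control against 437, 454 and 446 FPKM (log2 difference -0.32, SE 0.10, adjusted p = 0.125). In these genes, H2-DMb2 included, each control library was above each library of the other group, but none of the class II genes passed over all genes tested. H2-Aa had 101, 102 and 125 FPKM in control against 107, 95.0 and 90.8 FPKM with overlap (log2 difference -0.16, adjusted p = 0.509) and H2-DMb1 had 16.0, 16.8 and 23.3 FPKM in control against 17.4, 16.0 and 15.2 FPKM (log2 difference -0.18, adjusted p = 0.552). The summed class II FPKM was 982, 960.1 and 1050.1 in control and 831, 803 and 799.8 in the other group. Over the same libraries the 5 pan-leukocyte markers summed to 556, 519.9 and 532 and 558, 553 and 527 FPKM, with overlap, and 9 B cell genes to 322, 305 and 271 and 224, 228 and 225 FPKM, without overlap and with none of the 9 passing. Of 6 dendritic cell genes Cd209a fell (6.39, 5.29 and 6.64 FPKM in control against 2.60, 1.61 and 0.593 FPKM, log2 difference -1.52, adjusted p = 0.0347), none of 14 macrophage genes passed, and the 7 endothelial markers summed to 392, 402 and 396 and 452, 521 and 536 FPKM, without overlap and with none passing. In the osteoblast and stromal list Col1a1 fell (18.2, 19.2 and 25.2 FPKM in control against 10.3, 2.61 and 3.33 FPKM, log2 difference -1.95, adjusted p = 0.0388), as did Bglap (log2 difference -1.11, adjusted p = 0.0387). Bglap reached the filter through the control libraries, with means of 2.07 FPKM in control and 0.418 FPKM in the labelled group. The part of these cells in the class II values was not tested.

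**Figure D4:**
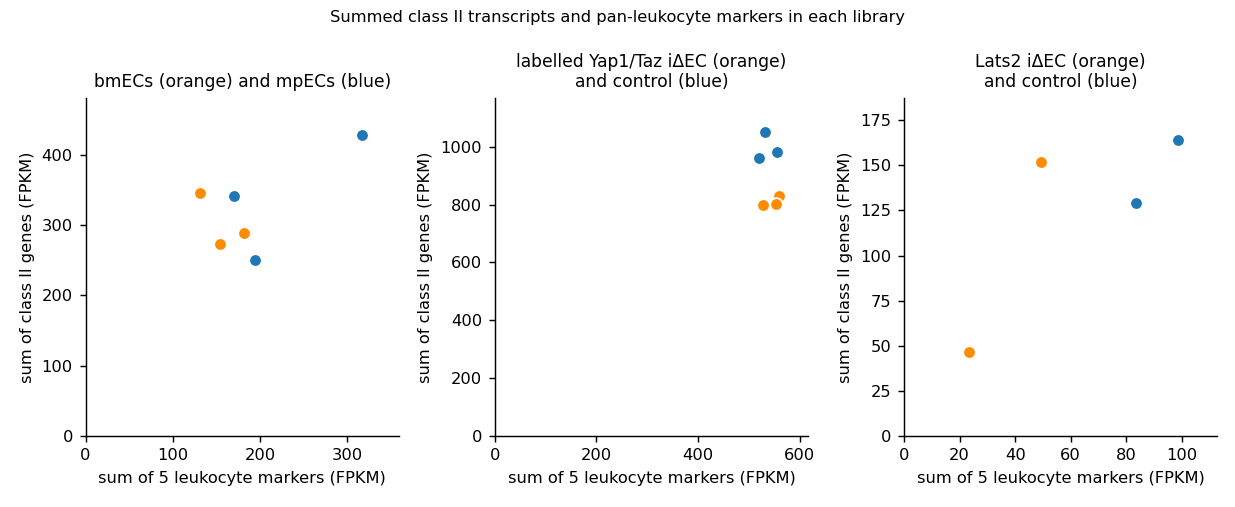
Summed FPKM of the class II genes (vertical axis) against the summed FPKM of the 5 pan-leukocyte markers Ptprc, Laptm5, Coro1a, Cd52 and Cd53 (horizontal axis), 1 point per library, blue for mpECs or control and orange for the other group. In the middle panel the groups are apart in class II (960.1 to 1050.1 against 799.8 to 831 FPKM) and overlap in leukocyte markers, and in the last panel the 2 Lats2 iΔEC libraries lie far from each other on both axes.

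None of the classical class I and loading genes passed, and Psmb8, Psmb9, Psmb10 and Tap1 were lower in the labelled group without overlap, as were 11.3% of all genes. B2m had 1202 to 1395 FPKM in control and 1287 to 1594 FPKM in the libraries labelled Yap1/Taz iΔEC, with overlap (log2 difference 0.18, adjusted p = 0.504). The log2 differences were -0.14 (adjusted p = 0.557) for H2-K1, -0.12 (adjusted p = 0.647) for H2-D1, -0.09 (adjusted p = 0.67) for Tap1, -0.07 (adjusted p = 0.774) for Tap2 and 0.00 (adjusted p = 0.994) for Tapbp. The standard errors of these 5 estimates were 0.09 to 0.11. Psmb8, Psmb9 and Psmb10 had log2 differences of -0.21 (adjusted p = 0.304), -0.24 (adjusted p = 0.256) and -0.23 (adjusted p = 0.305). That of Psmb5 was -0.58 (adjusted p = 0.0678). The ratio of Psmb8 to Psmb5 was thus higher in the labelled group (1.43, 1.40 and 1.13 against 0.954, 1.01 and 1.07 in control), without overlap. The ratios of Psmb9 to Psmb6 and of Psmb10 to Psmb7 overlapped, and no ratio was tested. Ubd had 38.9, 34.2 and 33.8 FPKM in control and 27.6, 50.5 and 50.5 FPKM in the libraries labelled Yap1/Taz iΔEC (log2 difference 0.21, SE 0.20, adjusted p = 0.632), 1 library of the labelled group lying below and the others above all controls.

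Ciita and Nlrc5 passed the filter in these libraries. Ciita had 2.77, 3.79 and 3.69 FPKM in control against 3.87, 2.12 and 2.01 FPKM (log2 difference -0.30, adjusted p = 0.479), and Nlrc5 had 4.16, 5.70 and 5.87 FPKM in control against 5.32, 4.72 and 5.18 FPKM (log2 difference -0.03, adjusted p = 0.944). Of the 8 nonclassical genes tested all had a negative log2 difference, and beside H2-Q7 the groups did not overlap in H2-Q4 and H2-Q6. They had log2 differences of -0.36 (adjusted p = 0.122) for H2-Q6, -0.25 (adjusted p = 0.203) for H2-Q4, -0.23 (adjusted p = 0.379) for H2-M3, -0.16 (adjusted p = 0.581) for H2-T22 and -0.07 (adjusted p = 0.783) for H2-T23. Of 58 further pathway genes tested, Procr rose (11.3, 9.73 and 7.16 FPKM in control against 15.2, 21.5 and 17.4 FPKM, log2 difference 0.88, adjusted p = 0.0423) and none fell. H2-Q7 lost its call without each of the 6 libraries in turn, and without the first library of the labelled group Ubd rose and H2-Ab1 and H2-Eb1 fell. The direction drawn here rests on the labels, against which the gene-level value of Wwtr1 ran.

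The remaining members were low or absent. In the bmEC and mpEC libraries 28 had a mean under 1 FPKM and 14 of these were listed at 0 throughout, with the others at means of up to 0.809 FPKM. In the Lats2 libraries 26 were under this mean, 15 of them listed at 0, and in the Yap1/Taz libraries 14 and 9. The H2-M10 series, H2-M1 and H2-T3 were listed at 0 in all 3 tables. Members above the mean that have not been named with a value had log2 differences from -0.55 (H2-K2) to 0.05 (H2-DMb2 and H2-Oa) in bmECs and from -0.65 (H2-DMb2) to 0.73 (H2-Ke2) in Lats2 iΔEC. They ranged from -0.55 (H2-DMb2) to 0.08 (H2-Oa and H2-Ob) in the libraries labelled Yap1/Taz iΔEC, none of which passed.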

How the data were processed

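RNA of sorted bone ECs was measured in 16 libraries. By the study's methods it was extracted with the RNeasy Plus Micro kit, made into TruSeq Stranded Total RNA libraries and sequenced on a MiSeq. The reads were aligned with TopHat to GRCm38 (mm10) and counted per gene with HTSeq 0.6.1, and the authors used DESeq2 for their own tests. The values deposited by the authors are FPKM per gene and library, in 3 tables. How FPKM were computed, the annotation release and the strand setting of the counting are not given in the sources used here. The tables were normalized separately, so that no level was compared between them, and every column of values matched a sample.

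Groups were taken from the labels. Each comparison was fitted alone, with limma 3.58.1 in R 4.3.3 on log2(FPKM + 1) for genes whose mean reached 1 FPKM, with a mean-variance trend. A gene was called when its p, adjusted by the Benjamini-Hochberg method over all genes tested, was under 0.05. The procedure was tested on simulated data. The members and lists were chosen with earlier results of these data known. Values are given for 24 members in each comparison (the B2m, H2-K1 and H2-D1 genes, 6 nonclassical class I, 6 class II, 6 loading and immunoproteasome genes, Ciita, Nlrc5 and Ubd) and for any other member called, and of each further list up to 3 called genes per direction by size of change. The target genes and the marker genes of other cell types are named as checks, and Psmb5, Psmb6 and Psmb7 beside the subunits that replace them. Irf1 in bmECs was named after its values were seen. One gene of the further lists is counted in them but not reported here by name.

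Values were close to whole multiples of what 1 read is worth given the exon length of the gene (62.7 to 70.3% of the values of up to 20 reads lay within 0.02 of a whole number, against 4% by chance), which gave the reads on genes. Alternatives were a pseudocount of 0.1, no filter or a mean of at least 5 FPKM, median-ratio scaling, no trend, a replicate block, a stricter call (adjusted p under 0.01 and a log2 fold change over 0.5 in size) and leaving out each library. A further 3 were chosen after seeing the data, namely limma-voom on the recovered reads, scaling to the recovered reads on genes, and quantile normalization. Gene positions are those of GENCODE M21 and promoters those of RefSeq, both on GRCm38. Shared sequence was measured as the share of 75-base windows of a gene's exons that occur in another gene.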

Additional observations from a re-analysis of the deposited data

How the results depend on the processing

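Over the alternatives none of the log2 fold changes of the 24 members with values changed sign when called. The 8 higher and 2 lower members in bmECs became 4 and 0 without a filter, 2 and 0 under the stricter call and 6 and 0 without the variance trend, 6 and 4 with scaling to recovered reads (which moved the median of all genes by -0.17), and 4 to 9 and 0 to 3 with 1 library left out. In the libraries labelled Yap1/Taz iΔEC the 0 higher and 1 lower members became 0 and 2 with a filter at 5 FPKM or with limma-voom, 0 and 0 without a filter, without the trend or under the stricter call, and 0 to 1 and 0 to 2 with 1 library left out. In Lats2 iΔEC the 0 higher and 7 lower members became 0 and 4 with a pseudocount of 0.1, 0 and 3 without a filter, 1 and 7 with a filter at 5 FPKM, 0 and 11 with quantile normalization, 0 and 10 with scaling to recovered reads (median of all genes -0.12), 0 and 1 under the stricter call, and 0 to 1 and 0 to 8 with 1 library left out. Median-ratio scaling left these counts as they were. Its factors were 1.004 in each mpEC and bmEC library and 1.001 to 1.007 in the others. With 1 library left out the lone library of a Lats2 group is assumed to vary like the others. The unfiltered tests cover more genes, and the causes of the other differences were not tested. The depth of 4729872 to 14741803 reads on genes limits what can be said of Ciita, Nlrc5 and the members under the filter.

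The replicate numbers in the labels were not shown to pair the libraries, since same-numbered libraries correlated, in their deviations from the group means, at 0.307, 0.088 and 0.102 for mpECs and bmECs, at -0.175, -0.123 and -0.156 for the Yap1/Taz libraries and at 0.065 for the Lats2 libraries. With a replicate block the members called higher and lower numbered 11 and 3 in bmECs, 0 and 0 in the libraries labelled Yap1/Taz iΔEC and 0 and 6 in Lats2 iΔEC. The block added H2-D1, H2-Q7, Psmb9 and H2-Eb1 in bmECs, and took away H2-Q7 in the libraries labelled Yap1/Taz iΔEC and Tapbp in Lats2 iΔEC. In the Lats2 design the number follows the sex-linked genes, with Ddx3y at 0 in both first libraries and at 22.8 and 17.2 FPKM in both second libraries.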
